A study of Mus musculus with 6 samples.

Results

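The mRNA levels of 8 receptors that guide B cells through lymphoid tissue were compared between follicular B cells in which 1 copy or both copies of Myh9, the gene of the myosin IIa heavy chain, can be deleted. The receptors were chosen by name: Cxcr4, Cxcr5, Ccr7, Ccr6, Ccr9, Cxcr3, Gpr183 and Cnr2. They have 9 of the 25017 entries of the deposited table, and 8 of its 20458 gene names. RNA of sorted B220+AA4.1-CD23+CD21lo cells was amplified and sequenced for the genotypes CD23Cre+Myh9wt/fl (3 samples) and CD23Cre+Myh9fl/fl (3 samples) on the C57BL/6 strain. In these animals Cre recombinase is driven by the CD23 promoter, which is active from the transitional stage of the spleen onward, and it removes a floxed exon of Myh9. The comparison group carries Cre as well and is haploinsufficient for myosin IIa, so no group with intact Myh9 enters the comparison, and an effect that Cre has in both groups cannot be seen. The sample labels give no age.

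The receptors are G protein-coupled receptors of the cell surface. Chemokines or lipids bound by them signal through Gi proteins to Rac and Rap GTPases, which drive actin polymerization and integrin adhesion, while myosin IIa contracts the rear of the moving cell. In follicular B cells, CXCR5 draws cells into the follicle, CCR7 toward the T cell zone, CXCR4 toward CXCL12-rich tissue such as the bone marrow and the germinal center dark zone, and GPR183 (also called EBI2) toward the follicle's edge. The study tested migration toward CXCL13, CXCL12 and CCL21, the ligands of CXCR5, CXCR4 and CCR7. It reported reduced migration of fl/fl cells toward each of them. From this and from imaging on ICAM-1 its authors concluded that myosin IIa is needed for B cells to detach from adhesive surfaces. The question here is how the mRNA of these receptors, and of related receptors, differed between the genotypes.

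Levels are given as FPKM (fragments mapped to a gene, divided by transcript length and by the size of the library), summed over the entries of a gene. Each is the authors' pooled value for a genotype, and log2 ratios are fl/fl over wt/fl after adding 1 to each FPKM, which understates the difference of low genes. Since a genotype has 1 value, no spread over samples can be given and no test was run, and the depth per sample is unknown. A gene was counted as lower or higher when the genotypes differed by at least 1.5-fold on that scale and its mean FPKM was at least 1. Of all genes with such a mean, 97.7% were within 1.5-fold, so a list in which none differed is common. The level of Myh9 itself was 50.6 FPKM in wt/fl cells against 21.1 FPKM in fl/fl cells, a log2 ratio of -1.22. Since only 1 exon is floxed and the value covers the whole transcript, this level is no measure of the share of deleted alleles. The related class II myosin genes Myh10 and Myh14 were under 1 FPKM in both genotypes.

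Of the 8 receptors, Cxcr4 had the largest difference between the genotypes. Its level was 113 FPKM in wt/fl cells and 39.7 FPKM in fl/fl cells, which is 35.1% of the wt/fl level. The log2 ratio was -1.49. A mean of 1 FPKM was reached by 7 of the 8 receptors, and 1 of these, Cxcr4, was lower by at least 1.5-fold, beside 1.53% of all 9879 genes that reached it (151 genes). None of the 7 was higher by 1.5-fold, beside 0.79% of all genes (78 genes). The share of the receptors is that of 1 gene, and the receptors were chosen with earlier results of these data known, so the count describes them and supports nothing further. Protein on the cell surface was not measured in these data. In sorted bulk samples, fewer cells that express Cxcr4 and less Cxcr4 mRNA per cell cannot be told apart.

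**Figure D1:**
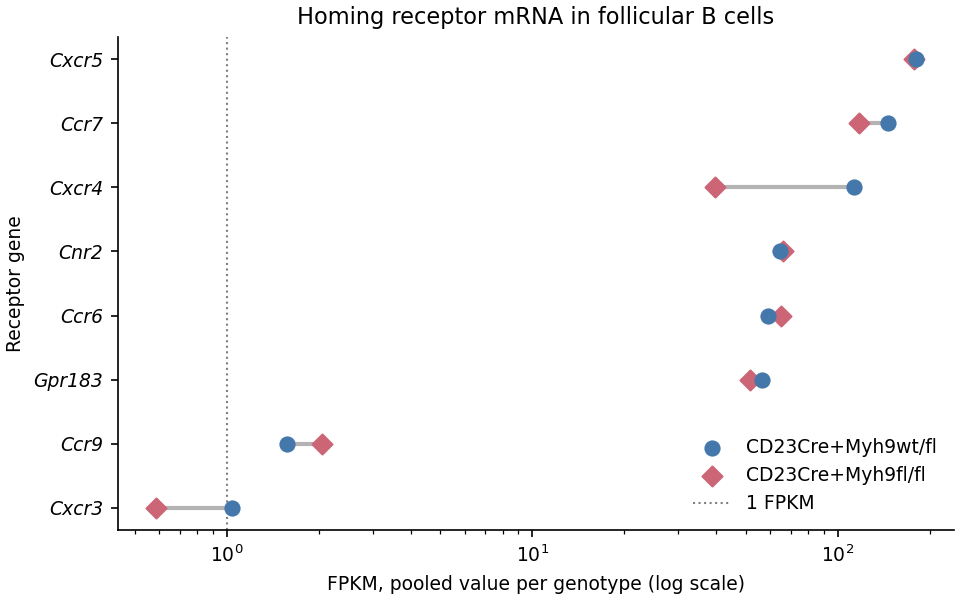
Pooled FPKM per genotype of the 8 homing receptor genes, on a log scale. Circles are CD23Cre+Myh9wt/fl and diamonds CD23Cre+Myh9fl/fl cells, each 1 pooled value without an error, and the dotted line marks 1 FPKM. Cxcr4 lies at 113 and 39.7 FPKM, while the circles and diamonds of Cxcr5 and Cnr2 nearly coincide.

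Among all 9879 genes, Cxcr4 had place 18 from the lowest log2 ratio. Low genes scatter more than high ones, so it was also placed among the 1618 genes whose mean FPKM lay within 2-fold of its own. The middle 95% of those genes had log2 ratios between -0.38 and 0.30, and Cxcr4 had place 4 from the lowest. S100a8, S100a9 and Hsph1 were lower, with log2 ratios of -2.45, -2.31 and -1.65. S100a8 and S100a9 encode calgranulins, which are abundant in neutrophils, and Hsph1 encodes a heat shock chaperone. The spread over genes is not the spread between samples, so these places do not say how far Cxcr4 would vary between mice of a genotype.

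**Figure D2:**
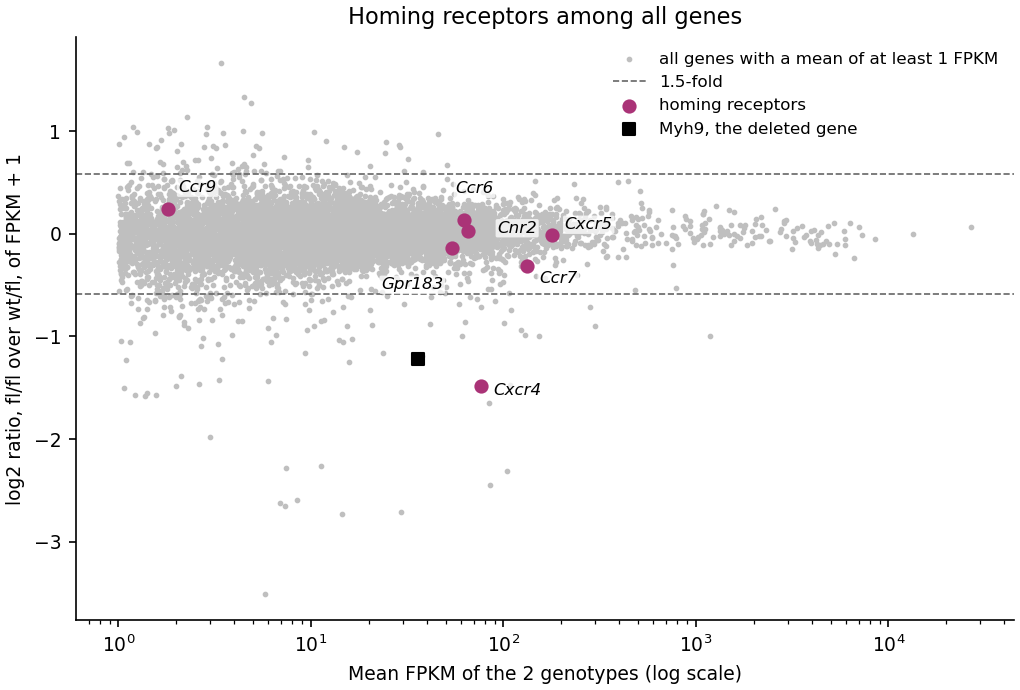
Log2 ratio of fl/fl over wt/fl against mean FPKM (log scale) for the 9879 genes that averaged 1 FPKM or more, each grey point a gene. The homing receptors that passed this minimum are labelled, dashed lines mark 1.5-fold, and the square is Myh9. Cxcr4 lies at -1.49, the other receptors lie between the dashed lines.

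The other receptors of lymphoid homing differed less. Cxcr5, the CXCL13 receptor that marks follicular B cells, was the highest receptor at 180 FPKM in wt/fl cells against 178 FPKM in fl/fl cells, with a log2 ratio of -0.02. Ccr7, which binds CCL19 and CCL21, was at 146 FPKM in wt/fl cells against 118 FPKM in fl/fl cells. Its log2 ratio of -0.31 had place 34 of the 829 genes within 2-fold of its level, inside the middle 95% of their log2 ratios (-0.41 to 0.31). The ratio between the levels of receptors does not depend on how the genotypes are scaled. Cxcr5 was at 1.59 times the Cxcr4 level in wt/fl and at 4.48 times in fl/fl cells. Ccr7 was at 1.29 times the Cxcr4 level in wt/fl and at 2.96 times in fl/fl cells.

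The receptors for lipids were within 1.5-fold. Gpr183, the receptor for the oxysterol 7α,25-dihydroxycholesterol, was at 56.6 FPKM in wt/fl cells against 51.5 FPKM in fl/fl cells, a log2 ratio of -0.13. Cnr2, the cannabinoid receptor CB2 that binds 2-arachidonoylglycerol, was at 64.8 FPKM in wt/fl cells against 66.3 FPKM in fl/fl cells, a log2 ratio of 0.03 that became -0.04 when the genotypes were scaled to equal summed FPKM of B cell identity genes. The highest genes of that sum were Cd74 and the MHC class II genes H2-Aa and H2-Ab1. H2-Aa was at 6083 and 6545 FPKM, H2-Ab1 at 2360 and 2796 FPKM. The study reported higher surface MHC class II in fl/fl cells, so this scaling is not free of the genotype. These receptors lay below Cxcr4 in wt/fl cells and above it in fl/fl cells: in the former Gpr183 was at 0.50 and Cnr2 at 0.573 times the Cxcr4 level, and in the latter they were at 1.30 and 1.67 times. Gpr183 lies inside the gene Ubac2, on the other strand, and the deposited table gives Gpr183, Gpr18 and Ubac2 a shared locus. In the basic set of GENCODE M21, 0 exons of Ubac2 overlap the span of Gpr183. Ubac2 was at 23.9 FPKM in both genotypes. Whether the authors' counting used strand is not given in the sources used here, so reads from unspliced Ubac2 RNA over Gpr183 cannot be told apart from those of Gpr183. For the same reason 110 exon bases that Cxcr5 shares with Bcl9l on the other strand may hold reads of either gene.

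The receptors of mucosal and inflamed tissue covered a wide range of levels. Ccr6, the CCL20 receptor of mature B cells, was at 59.3 FPKM in wt/fl cells against 65.1 FPKM in fl/fl cells, with a log2 ratio of 0.13. It is the receptor with 2 entries, which are groups of transcripts sharing a coding sequence. The larger entry was at 53.4 FPKM in wt/fl cells against 59.1 FPKM in fl/fl cells, and held 90.1% and 90.8% of the gene's level. The smaller entry was at 5.84 FPKM in wt/fl cells against 6.00 FPKM in fl/fl cells, so the division between them was nearly equal in the genotypes. Ccr9, the gut homing receptor for CCL25, was low, at 1.57 FPKM in wt/fl cells against 2.05 FPKM in fl/fl cells. Its annotated span overlaps 6 other genes, among them Lztfl1 on the other strand with 10 exons in the span. None of the 6 shares exon bases with the main Ccr9 transcript, but at this level reads of unspliced RNA from either gene cannot be told apart. Cxcr3, a receptor of T-bet-expressing lymphocytes for CXCL9, CXCL10 and CXCL11, was at 1.04 FPKM in wt/fl cells against 0.585 FPKM in fl/fl cells, and its mean was under the minimum. Its log2 ratio was -0.36 with 1 FPKM added and -0.83 with nothing added, so the size of this difference depends on the added value, and at so low a level its precision is unknown.

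Ordered by level, the wt/fl cells had Cxcr5, Ccr7, Cxcr4, Cnr2, Ccr6, Gpr183, Ccr9 and Cxcr3 from highest to lowest. In the fl/fl cells Cxcr4 had moved from place 3 to place 6, below Gpr183, and the other 7 kept their order. Without a spread it cannot be said which neighbours differ, and Cnr2, Ccr6 and Gpr183 lay close together in both groups. The summed level of the 8 receptors was 623 FPKM in wt/fl cells against 521 FPKM in fl/fl cells. Of that sum, Cxcr4 made up 18.2% in wt/fl and 7.63% in fl/fl cells. The other 7 summed to 510 FPKM in wt/fl cells against 481 FPKM in fl/fl cells, so the differences of fl/fl minus wt/fl were -73.4 FPKM for Cxcr4 and -28.6 FPKM for the others together. Ccr7 had a difference of -28.9 FPKM, and those of the remaining 6 nearly cancelled.

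**Figure D3:**
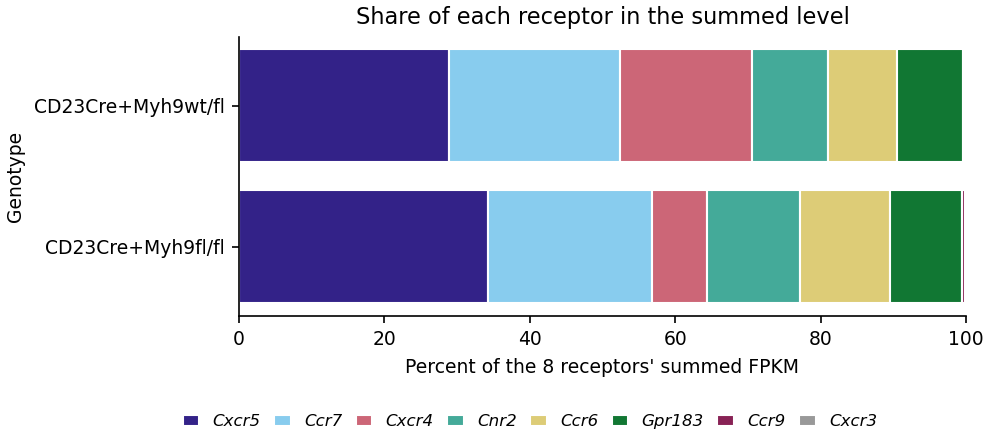
Share of each receptor in the summed FPKM of the 8 homing receptors, in percent, with 1 bar per genotype made from pooled values. The segment of Cxcr4 spans 18.2% in wt/fl and 7.63% in fl/fl cells, and the segments of Ccr9 and Cxcr3 at the right end are under 1%.

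Genes with levels most like those of Cxcr4 in both genotypes were found by the Euclidean distance over the 2 values of log2(FPKM + 1). The nearest 5 were Hsph1, Chordc1, Apoe, Ahsa1 and Trim25. Hsph1 was at 129 FPKM in wt/fl cells against 40.3 FPKM in fl/fl cells, at a distance of 0.187. The others lay at distances from 0.464 to 0.613, and Trim25, the last of them, had a log2 ratio of -0.64. With only 2 values per gene, likeness of this kind reflects level and ratio and nothing else.

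In GENCODE M21 on GRCm38, Cxcr4 lies on the minus strand at chr1:128588199-128592293, and its main transcript has 2 exons and a length of 1805 bases, of which 1077 code for the receptor. The bases before the start of Cxcr4 are shown because it was the receptor with the difference, and those of Gpr183 because it lay at a like level in fl/fl cells and within 1.5-fold between genotypes. Promoter sequences from RefSeq on GRCm38.p6 were matched for 6 of the 8 receptors (8 start sites). Each window is the 250 bases before a start, on the strand of the gene. Capitals mark the letters searched on both strands: the core of the NRF1 motif, TGCGCATGC, the box bound by Sp1, GGGCGG, the core promoter element TATAAA, the core of the hypoxia response element, ACGTG, the half-site of the glucocorticoid receptor, AGAACA, and units of the heat shock element, TTCNNGAA in one arrangement or GAANNTTC in the other. The Cxcr4 window is chr1:128592300-128592549 and the Gpr183 window is chr14:121965194-121965443, both on the minus strand.
Cxcr4: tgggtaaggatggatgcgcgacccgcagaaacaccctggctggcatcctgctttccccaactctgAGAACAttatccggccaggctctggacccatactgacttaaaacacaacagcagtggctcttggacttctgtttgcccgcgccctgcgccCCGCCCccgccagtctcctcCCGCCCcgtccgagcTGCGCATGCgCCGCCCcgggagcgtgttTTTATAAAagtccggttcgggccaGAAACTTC
Gpr183: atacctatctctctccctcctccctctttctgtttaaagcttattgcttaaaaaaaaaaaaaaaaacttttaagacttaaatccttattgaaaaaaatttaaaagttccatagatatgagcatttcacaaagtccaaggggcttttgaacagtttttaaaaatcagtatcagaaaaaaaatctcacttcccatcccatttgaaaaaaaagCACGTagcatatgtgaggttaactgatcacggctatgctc

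The Cxcr4 window is 61.2% G and C and has 19 CG pairs, beside medians of 52.4% and 6 over all 32851 windows. It holds the NRF1 core starting 60 bases before the start, which 1.28% of all windows hold. Sp1 boxes begin 95, 75 and 50 bases before the start, and 32.7% of all windows hold at least 1. TATAAA was matched on both strands, in letters that overlap, 32 and 30 bases before the start, and is present in 12.4% of windows. The half-site AGAACA is at 185 bases and GAANNTTC at 8 bases before the start, and 16.1% and 6.69% of windows hold these letters. TTCNNGAA (7.17% of windows) and ACGTG (16.6% of windows) were not found there. The Gpr183 window is 32.0% G and C, and ACGTG 40 bases before the start was the only match. Of the other 6 windows, 1 of Ccr6 holds ACGTG and the rest hold none of the motifs. A match is a description of letters, and binding of a factor at these sites was not measured here. Levels of 3 factors that bind such motifs were within 1.5-fold: Nrf1 was at 19.5 FPKM in wt/fl cells against 19.8 FPKM in fl/fl cells, Hif1a at 26.8 and 25.0 FPKM, and Nr3c1, which encodes the glucocorticoid receptor, at 50.6 and 37.8 FPKM, a log2 ratio of -0.41. That of Nr3c1 was the lowest of the 21 transcription factors described below that passed the minimum. It lay below the middle 95% of genes within 2-fold of the Gpr183 level (-0.32 to 0.30). Levels of Sp1 and heat shock factor genes are not given here.

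The remaining chemokine receptor genes were mostly low. Of 18 others, 3 passed the minimum level and none of these differed by 1.5-fold. Cxcr2, a receptor of neutrophils, was at 5.99 FPKM in wt/fl cells against 4.96 FPKM in fl/fl cells, Cxcr6 at 4.74 and 3.96 FPKM, and Ccrl2, which presents chemerin and does not signal, at 1.02 and 1.58 FPKM. Over all 24 chemokine receptor genes the summed level was 519 FPKM in wt/fl cells against 420 FPKM in fl/fl cells, and without Cxcr4 it was 406 and 380 FPKM. Cxcr7 (now Ackr3), the scavenging receptor that shares CXCL12 with CXCR4, was at 0.454 FPKM in wt/fl cells against 0.584 FPKM in fl/fl cells.

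Ligands and the enzymes of the lipid ligands came next. Of 17 such genes in the table, 6 passed the minimum, with a median log2 ratio of -0.07 beside 0.00 over all genes, and none differed by 1.5-fold. The median was 0.08 over the 2 averaging at least 5 FPKM, Mif and Faah. Mif, a cytokine that binds CD74 and CXCR4, was the highest at 297 FPKM in wt/fl cells against 281 FPKM in fl/fl cells. Faah and Napepld, enzymes of anandamide breakdown and synthesis, and Daglb, which makes 2-arachidonoylglycerol, were at 2.89 to 6.58 FPKM in both genotypes. Cxcl12 and Cxcl13 were at most 0.115 FPKM, and Ccl19 was listed at 0 in both groups. Stromal cells of lymphoid organs are the usual source of these chemokines.

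Among other receptors for attractants, lipids and nucleotides, levels ranged widely. Of 26 genes, 11 passed the minimum and 15 did not, and their median log2 ratio was 0.00. None of the 11 differed by 1.5-fold, as was so for 97.7% of all genes that passed. The highest was Gpr18, at 154 FPKM in wt/fl cells against 173 FPKM in fl/fl cells. S1pr1, the sphingosine 1-phosphate receptor of exit from lymphoid tissue, was at 98.0 FPKM in wt/fl cells against 75.2 FPKM in fl/fl cells, a log2 ratio of -0.38. P2ry10, a receptor for lysophosphatidylserine, had the lowest log2 ratio among the 11, -0.49, with 69.6 FPKM in wt/fl cells against 49.3 FPKM in fl/fl cells. S1pr4 was at 29.3 and 28.4 FPKM.

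Next came the machinery downstream of the receptors. All 19 G protein and effector genes passed the minimum, and none differed by 1.5-fold, as was so for 97.7% of all genes that passed it, with log2 ratios between -0.24 and 0.29 and a median of 0.03. Rac2 and Rac1, GTPases of actin assembly, were at 250 and 137 FPKM in wt/fl cells and at 280 and 147 FPKM in fl/fl cells. Rap1b, a GTPase of integrin activation, was at 139 FPKM in wt/fl cells against 141 FPKM in fl/fl cells, and Gng5, a G protein subunit, at 214 and 205 FPKM. Of 20 genes that end receptor signalling or carry receptors to the lysosome, 17 passed and none of these differed by 1.5-fold, with log2 ratios between -0.37 and 0.41 and a median of -0.05. The highest were Rgs19, which speeds GTP hydrolysis by Gi proteins, at 113 FPKM in wt/fl cells against 124 FPKM in fl/fl cells, the receptor kinase genes Adrbk1 (GRK2) at 80.8 and 77.7 FPKM and Grk6 at 49.2 and 51.8 FPKM, and Itch at 39.5 and 39.3 FPKM, a ubiquitin ligase that sorts CXCR4 for degradation.

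Of 16 adhesion genes of homing, 14 passed, with a median log2 ratio of -0.05. Cd47 was at 163 FPKM in wt/fl cells against 154 FPKM in fl/fl cells, the ligand of LFA-1 Icam2 at 98.7 and 102 FPKM, and Itga4, the α4 integrin, at 69.9 and 66.8 FPKM. Cd9, a tetraspanin that is also a marker of marginal zone B cells, was lower at 4.61 FPKM in wt/fl cells against 2.52 FPKM in fl/fl cells, a log2 ratio of -0.67, and was the gene of this list past 1.5-fold. Of 22 transcription factors of B cells and of homing receptor genes, 21 passed and none differed by 1.5-fold, with a median of -0.02. The highest were Pou2af1 at 604 FPKM in wt/fl cells against 633 FPKM in fl/fl cells, Pax5 at 357 and 373 FPKM, Ikzf3 at 247 and 270 FPKM, and Ikzf1 at 159 and 175 FPKM.

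**Figure D4:**
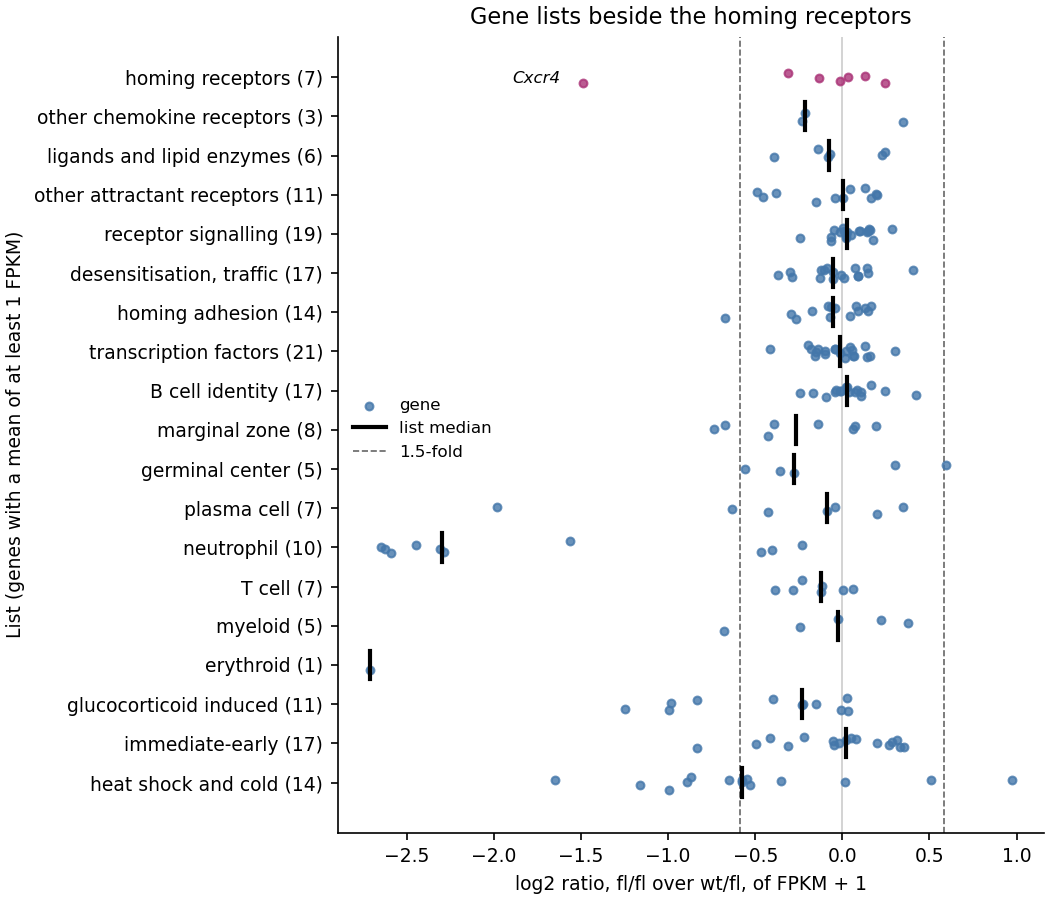
Log2 ratio of fl/fl over wt/fl for the genes of each list that averaged 1 FPKM or more, with their number in brackets. Each point is a gene, black bars are list medians, dashed lines mark 1.5-fold, and points are spread vertically for display. Genes of receptor signalling lie between -0.24 and 0.29, while 7 of 10 neutrophil genes lie below the lower dashed line.

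The labelled cell type was checked against its markers. All 17 B cell identity genes passed the minimum and none differed by 1.5-fold, with a median log2 ratio of 0.03 and summed levels of 22730 FPKM in wt/fl cells against 23825 FPKM in fl/fl cells. Cd74, H2-Aa, H2-Ab1 and Cd79b were the highest, each above 1638 FPKM in both groups. Of 8 marginal zone genes that passed, 2 were lower, Cd9 and Plac8, the second at 138 FPKM in wt/fl cells against 82.1 FPKM in fl/fl cells. The median of the 8 was -0.26, with Mzb1 at 189 and 140 FPKM, Dtx1 at 27.3 and 20.6 FPKM and Cd1d1 at 15.1 and 15.7 FPKM. Of 5 germinal center genes that passed, 1 was higher, the death receptor gene Fas, at 4.43 FPKM in wt/fl cells against 7.19 FPKM in fl/fl cells. Their median was -0.28, but 0.45 over the 2 averaging at least 5 FPKM, Bcl6 and Fas, with Bcl6 at 48.4 and 60.0 FPKM, Top2a at 3.26 and 2.52 FPKM and Mki67, a marker of dividing cells, at a log2 ratio of -0.56. Of 7 plasma cell genes that passed, 2 were lower: Igj, the joining chain of secreted antibody, at 5.40 FPKM in wt/fl cells against 0.617 FPKM in fl/fl cells, and Sdc1 at 2.30 and 1.13 FPKM. Their median was -0.09, Irf4, Xbp1 and Slamf7 were within 1.5-fold, and Tnfrsf17 was listed at 0 in both groups.

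Markers of other blood cells were present and some moved with the genotype in the direction of Cxcr4. CXCR4 is also made by neutrophils, in which it holds cells in the bone marrow, and by plasma cells. Of 14 neutrophil genes in the table, 10 passed the minimum, and 7 genes were lower by 1.5-fold in the fl/fl samples: S100a9, S100a8, Camp, Retnlg, Ngp, Lcn2 and Ltf, with log2 ratios between -2.65 and -1.57. The other 3 that passed, Cxcr2, Csf3r and Itgam, were within 1.5-fold, with log2 ratios of -0.23, -0.41 and -0.47. The summed level of the 14 genes was 389 FPKM in wt/fl cells against 74.7 FPKM in fl/fl cells, with S100a9 the most abundant at 175 and 34.5 FPKM. Elane and Mpo, markers of immature granulocytes, were at 0.119 and 0.0916 FPKM in wt/fl and listed at 0 in fl/fl cells. Neutrophils carry neither B220 nor CD23, which are markers of the sort gate, yet RNA of these neutrophil genes was detected in the sorted samples. Of 6 red cell genes in the table, 1 passed, the globin gene Beta-s, at 52.0 FPKM in wt/fl cells against 7.08 FPKM in fl/fl cells, and the 6 genes summed to 55.8 and 7.86 FPKM. Alas2 and Slc4a1, also of red cells, had means under 1 FPKM. Of 5 myeloid genes that passed, the lysozyme gene Lyz2 was lower at 72.6 FPKM in wt/fl cells against 44.9 FPKM in fl/fl cells, while the complement genes C1qb and C1qc, macrophage markers, were between 1.60 and 2.39 FPKM and Cd68 was at 7.41 and 6.10 FPKM. The 14 myeloid genes summed to 89.2 and 60.4 FPKM, and the median was -0.02 over the 5 and -0.46 over the 2 averaging at least 5 FPKM, Lyz2 and Cd68. Of 7 T cell genes that passed none differed by 1.5-fold, with a median of -0.12 (Lck, the 1 gene averaging at least 5 FPKM, was at 0.00), a sum over 12 genes of 30.6 FPKM in wt/fl cells against 28.2 FPKM in fl/fl cells, and Lck the highest at 14.5 FPKM in both. The other leading T cell genes, Lat, Cd3d and Cd3e, were between 1.83 and 3.02 FPKM. The part of RNA from other cells in the level of Cxcr4 was not tested.

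Genes known to respond to hormones, temperature or handling were listed beside Cxcr4 too. Cxcr4 is known as a gene that glucocorticoids induce in lymphocytes. Of 11 other genes of that kind that passed the minimum, 4 were lower in fl/fl cells and none higher, with a median of -0.23 that became -0.40 over the 9 genes averaging at least 5 FPKM. Tsc22d3, which encodes GILZ, was at 204 FPKM in wt/fl cells against 102 FPKM in fl/fl cells, Zfp36l2, an mRNA decay factor, at 172 and 86.9 FPKM, Ddit4, an inhibitor of mTORC1, at 22.6 and 8.95 FPKM, and the phosphatase gene Dusp1 at 15.3 and 8.12 FPKM. Btg1 and Txnip, the highest of the list, were at 369 and 274 FPKM in wt/fl cells and at 315 and 208 FPKM in fl/fl cells. The other 5 that passed, Per1, Sgk1, Fkbp5, Errfi1 and Il7r, had log2 ratios between -0.23 and 0.03, with Fkbp5 at 6.59 FPKM in wt/fl cells against 6.75 FPKM in fl/fl cells. The summed level of the 13 genes was 1089 FPKM in wt/fl cells against 759 FPKM in fl/fl cells. Of 14 heat shock and cold genes that passed, 6 were lower and 1 was higher, with a median of -0.58. The lower genes were Hspa8, at 1574 FPKM in wt/fl cells against 788 FPKM in fl/fl cells, Hsp90aa1, Dnaja1, Hsph1, Hspa4l and Hspa1b. The cold-induced gene Cirbp was the higher, at 30.5 FPKM in wt/fl cells against 60.7 FPKM in fl/fl cells, while Hsp90ab1, Hspe1 and Rbm3 had log2 ratios of -0.53, -0.55 and 0.51. Immediate-early genes, which many stimuli and tissue dissociation induce, had a median of 0.02 over 17 genes, and Dusp1 was the gene past 1.5-fold. The highest of them were Zfp36 at 336 FPKM in wt/fl cells against 348 FPKM in fl/fl cells, Ier5 at 162 and 204 FPKM, Dusp2 at 101 and 97.2 FPKM, and Nfkbia at 48.8 and 58.9 FPKM. The part of hormone exposure, temperature or handling in the level of Cxcr4 was not tested.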

How the data were processed

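RNA was isolated with TRIzol, purified, amplified with the Ovation RNA-Seq System V2 and made into TruSeq Nano libraries. The authors deposited FPKM as 1 pooled value per genotype for each group of transcripts sharing a coding sequence, in the layout of Cuffdiff. The submitters' processing notes name Bowtie, TopHat and Cufflinks, and mm10 and GRCm38, without versions. Positions of genes in the table do not match those of GRCm38 and are not printed. The table also holds the authors' own fold changes, test statistics, p-values, q-values and significance calls, which were not used. FPKM was summed per gene name, and log2 ratios were computed with a pseudocount of 1. Counts, ranks and list medians were taken over genes averaging at least 1 FPKM, and a threshold of 1.5-fold was used. Depth per sample is unknown.

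Named were the 8 receptors, Myh9, in each list the 4 genes with the highest mean FPKM and each gene past 1.5-fold, and the 5 genes nearest Cxcr4. Some genes that this rule takes are not reported here. Nrf1, Hif1a, Nr3c1, Cxcr7, Ubac2, Bcl9l, Lztfl1, Cxcl12, Cxcl13, Ccl19, Elane, Mpo, Tnfrsf17, and the genes below Cxcr4 at its level were named after their values were seen. So were Per1, Sgk1, Fkbp5, Errfi1, Il7r, Csf3r, Itgam and Fcer2a, which the rule does not take. The receptors and the lists were chosen with earlier results of these data known. Some genes, such as Cd9, Mzb1, Cxcr2 and Dusp1, belong to more than 1 list. Alternatives were other pseudocounts, minimum levels, thresholds and scalings, and single entries. Exons came from GENCODE M21 and promoters from RefSeq on GRCm38.p6. Computations used Python 3.11.15, pandas 2.3.3, numpy 2.4.6 and matplotlib 3.10.9, and the counting step was tested on simulated data.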

Additional observations from a re-analysis of the deposited data

How the results depend on the processing

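The log2 ratio of Cxcr4 lay between -1.55 and -1.49 under all 6 alternatives (a pseudocount of 0.1 or none, upper quartile scaling, scaling to B cell identity genes, centring on the median, and the highest entry alone). The count of lower receptors was 1 with 6 of 7 alternatives: at a threshold of 2-fold, beside 0.405% of all genes lower by 2-fold, and at 1.5-fold with no pseudocount, no minimum level, a minimum of 5 FPKM, upper quartile scaling or each entry on its own, beside 0.866% to 3.37% of all genes or entries. With neither a pseudocount nor a minimum level, an alternative chosen after seeing the data, it was 2, Cxcr4 and Cxcr3, beside 13.7% of 17257 genes lower and 19.8% higher. Higher receptors numbered 0 under these 7, beside 0.0911% of all genes higher at 2-fold and 0.336% to 2.86% of genes or entries under the other planned 5. The places of Cxcr4 in the order of levels were the same with the highest entry alone. Ccr9 and Cxcr3 moved by over 0.1 with a pseudocount of 0.1 (0.36 and -0.73) and with none (0.38 and -0.83), the other 5 receptors did not. Of 66 alternative list medians, 10 moved by over 0.1. Over genes averaging at least 5 FPKM they were 0.08 for ligands and enzymes (2 genes), -0.39 for marginal zone (5 genes), 0.45 for germinal center (2 genes), -2.45 for neutrophil (7 genes), 0.00 for T cell (1 gene), -0.46 for myeloid (2 genes) and -0.40 for glucocorticoid genes (9 genes). With a pseudocount of 0.1 they were -2.61 for neutrophil, -2.86 for red cell and -0.40 for glucocorticoid genes. No paired analysis was possible because the deposited values are pooled per genotype, and for the same reason no replicate could be left out.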
